A study of Vitis vinifera with 4 samples.

Results

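Of the NAC61 binding events that could be placed relative to a gene, 347 lay far from the gene assigned to them. An event was counted as far when its summit, the base at which binding was placed, fell outside the assigned gene and more than 5000 bp from both of its ends. Gene coordinates were at hand for 1879 of all 8558 events, in a copy of the study's event sheet that follows the alphabet of the gene annotations and stops early, so the far events were 18.5% of the listed events (95% Wilson interval 16.8 to 20.3%), and the listed events were 22.0% of the whole list. The 1879 listed events were assigned to 1477 genes, and the far events to 287 of them. The distances of the remaining 6679 events were not analysed here.

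Binding was measured by DNA affinity purification sequencing (DAP-seq), in which a tagged transcription factor (TF) made in vitro is mixed with naked, fragmented genomic DNA and the DNA that it retains is sequenced. NAC61 (VIT_08s0007g07640) carried a HALO affinity tag and was represented by 2 replicates of HALO-NAC61, and 2 replicates of a GST-HALO protein with no TF, from the pIX-HALO vector, formed the control. Both proteins were translated in rabbit reticulocyte lysate, and all 4 libraries used genomic DNA of Vitis vinifera cv. 'Syrah' from young leaves pooled from fruiting cuttings. The measurement holds no chromatin and no other plant protein, and the authors deposited 1 list of events called on both HALO-NAC61 replicates together, so the list holds no value per replicate, and neither a spread between replicates nor a test between conditions is given.

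NAC proteins are a plant-specific family of TFs named after NAM, ATAF and CUC. Their conserved N-terminal NAC domain binds DNA as a dimer, usually at sites with the core CACG, and members of the family are known for roles in leaf senescence, fruit ripening, secondary wall formation and responses to drought and pathogens. An event far from a gene in DAP-seq marks DNA that the protein bound in a tube, and it carries no evidence that the gene nearest to it is regulated.

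The DNA words found at the far events are given first, since they are the only sequence recorded for them here. For some events the event sheet held a k-mer, a word of 7 to 11 letters that the event finder GEM recorded at the event. Each k-mer was searched on both strands for the 7-base motif of NAC61, in 8 spellings, which were CACGCAA or else CACGCCA or else CACGTAA or else CACGTCA or else CAAGCAA or else CAAGCCA or else CAAGTAA or else CAAGTCA. The following k-mers stood at far events described below or were the most frequent among them. Capitals mark a match to the motif, which in these words lies on the opposite strand, so that TTGCGTG is read as CACGCAA there. A word in lower case throughout held no spelling of the motif.
BLH1 event: ggTTGCGTGt
HMA2 event: TGACGTGtt
PIN3 event: ggTTGCGTG
bHLH064 event: gtTTGCGTGt
AarF domain kinase event: aTGGCGTG
cytochrome c oxidase subunit 2 event: cttgcgta
word of 12 far events: aTTGCTTGt
word of 10 far events: TGACGTGt
word of 6 far events: tgcgtgt

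A k-mer was recorded at 103 of the 347 far events (29.7%, 95% Wilson interval 25.1 to 34.7%) and at 648 of the 1532 other listed events (42.3%, 39.8 to 44.8%). The intervals of both shares do not overlap. They cover counting error only, as do all intervals given here, and because events are not replicates no test was run on this or any other difference between classes of events. By position, the share was 55.2% (49.5 to 60.9%) at the 286 events within 1 kb upstream of the assigned gene, 42.1% (36.99 to 47.4%) at the 342 events 1 to 5 kb upstream, 47.3% (41.5 to 53.2%) at the 277 events in the first 1 kb of a gene, 38.9% (32.6 to 45.7%) at the 208 events within 5 kb downstream and 32.0% (27.7 to 36.6%) at the 419 events inside a gene and more than 1 kb from its start. The interval of the far events overlapped those of events deep inside genes and of events within 5 kb downstream, and lay below those of the other 3 classes. Among the far events the share was 27.0% of 163 at 5 to 10 kb from the gene, 28.8% of 104 at 10 to 20 kb and 31.8% of 66 at 20 to 50 kb, while beyond 50 kb a k-mer stood at 8 of 14 events (57.1%, 32.6 to 78.6%). The 4 of these 14 with a neighbour within 500 bp, described below, stood in close pairs with a k-mer at each event. The intervals of each pair overlap, so its events may share reads and are not separate measurements.

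**Figure D1:**
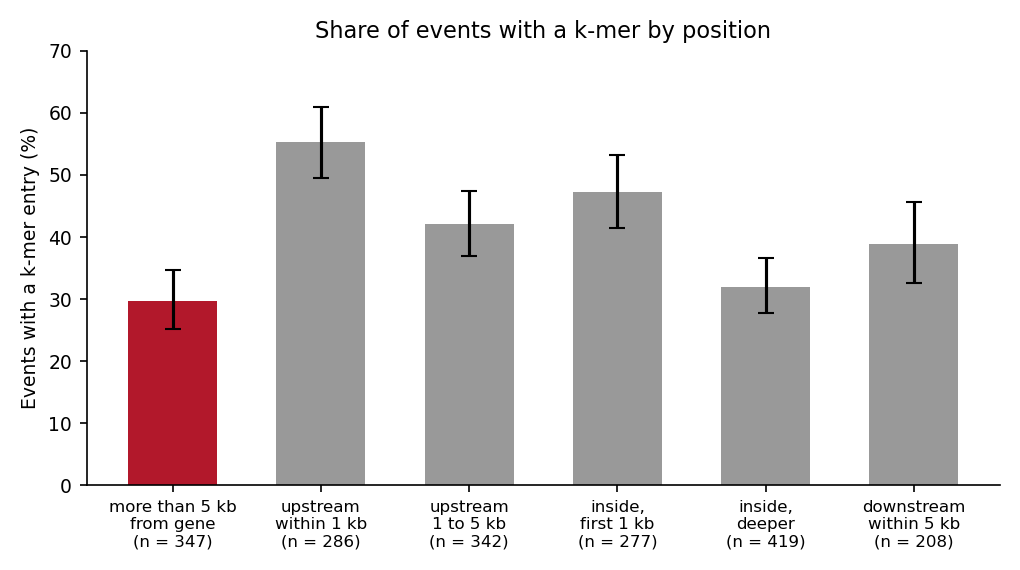
Share of listed events with a k-mer (vertical axis, %) for the 347 far events (red) and 5 classes of other listed events (grey) by position relative to the assigned gene, with 95% Wilson intervals as bars. The far events are lowest at 29.7%, and the events within 1 kb upstream are highest at 55.2%.

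Since a k-mer could be tied to the strength of an event, the share was also read at matched signal, which is the count of HALO-NAC61 reads behind an event in the output of GEM. Among events with at least 130 reads, 12 of 47 far events (25.5%) and 115 of 257 other listed events (44.7%) had a k-mer. Between 100 and 130 reads the shares were 24.3% of 70 far events and 36.7% of 341 other listed events, and between 80 and 100 reads they were 25.7% of 70 and 39.7% of 380. Among the weaker events, from 60 to 80 reads, a k-mer stood at 33.0% of 88 far events and 45.0% of 382 other listed events, and below 60 reads at 37.5% of 72 and 49.4% of 172. The far share was the lower one in all 5 ranges of signal, although the intervals of both classes overlapped in each of them. Read at matched −log10 q, where q is the adjusted p-value that GEM gave the event against the GST-HALO control, the far share was again the lower one in all 4 ranges, with 43.0% of 86 far events and 48.9% of 333 other listed events from 2 to 4, 29.9% and 40.7% from 4 to 7, 17.2% and 35.4% from 7 to 12 and 28.7% and 45.3% at 12 or more. In the ranges from 7 upwards the intervals did not overlap.

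**Figure D2:**
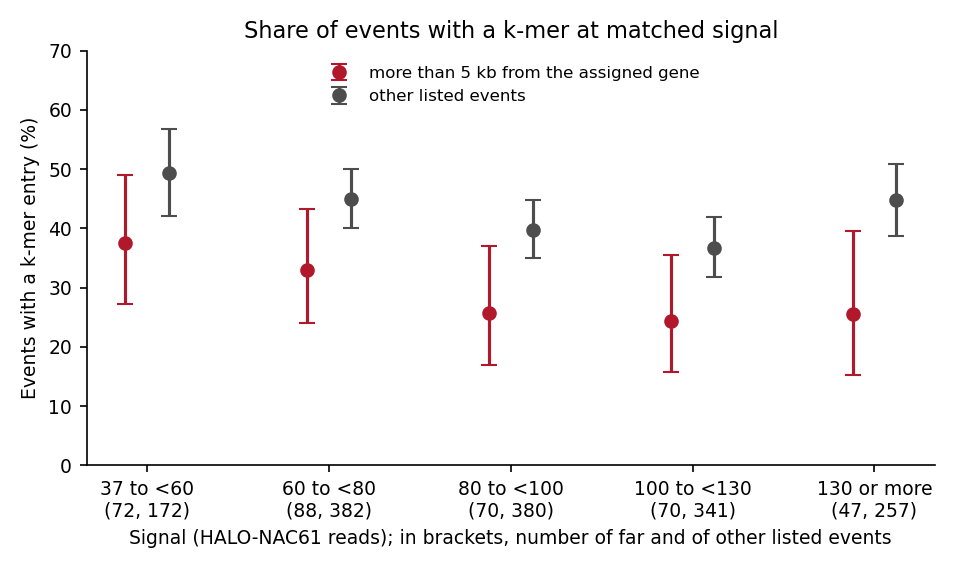
Share of events with a k-mer (vertical axis, %) in 5 ranges of signal (horizontal axis, HALO-NAC61 reads), for far events (red, left of each pair) and other listed events (grey), with 95% Wilson intervals. In each range the far events lie below the other listed events, from 25.5% against 44.7% at 130 reads or more to 37.5% against 49.4% below 60 reads.

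Where a k-mer was recorded, its make-up differed little between the classes. The study took the motif from the top-scoring events of this same list, and GEM recorded the words on it. Likeness between the classes is therefore no independent evidence for the motif at far events. A spelling of the motif was held by 76 of the 103 far k-mers (73.8%, 64.5 to 81.3%) and by 439 of the 648 other k-mers (67.7%, 64.1 to 71.2%), and the core CACG by 79.6% and 80.7% of them. The letter N, which names no single base, stood in 5 far and 48 other k-mers, and no spelling could match across it. Over all events with or without a k-mer, a recorded motif stood at 21.9% of far events (17.9 to 26.5%) and 28.7% of other listed events (26.4 to 31.0%), or 27.4% of all 1879 listed events. The spelling CACGCAA was the most frequent one, in 33 far k-mers (32.0%) and 36.0% of the others, followed by CACGTCA, in 19 (18.4%) and 15.4%. The spelling CACGTCA, read TGACGTG in the k-mers above, also holds ACGTG as part of its letters. CACGCCA and CAAGCAA each stood in 12 far k-mers (11.7%), against 10.6% and 5.71% of the other k-mers, and the remaining 4 spellings in none of either class, which for the 103 far k-mers leaves an upper bound of 3.60%.

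The far k-mers were of 35 different words, 11 of them seen once. The most frequent, aTTGCTTGt, is the only one with CAAG in place of the core CACG. Its 12 far events were weak, with a lowest signal of 42 reads, a median of 58.1 and a highest of 100, and a median −log10 q of 3.06 (2.02 to 25.3). One of them was the upstream event of Cullin-1 (VIT_04s0043g00650), with 78 reads. The next word, TGACGTGt, stood at 10 far events with higher medians in both measures, with signals of 56 to 175 reads (median 104) and a median −log10 q of 10.7 (3.18 to 22.4). The lowest of these −log10 q values was that of the abscisic acid receptor PYL8 (VIT_16s0050g02620), at an event of 114 reads. The far events with any k-mer had a median signal of 77 reads (71 to 87) and a median −log10 q of 5.31, and the far events without one 86.5 reads (80 to 94) and 7.60, so that a recorded word did not go with a stronger event.

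The signals of the far events ran over a wide range with a low middle. The lowest was 38 reads, the lower quartile 63.9, the median 83.8 (95% interval 78 to 89), the upper quartile 108 and the highest 929.3 reads, against a median of 91 (88 to 92) for the other listed events and 89.25 for the whole list. The difference lay mainly at the weak end. Fewer than 50 reads were counted at 39 far events (11.2%, 8.33 to 15.0%), against 83 of the other listed events (5.42%, 4.39 to 6.67%), and at least 150 reads at 24 far events (6.92%) and 153 of the others (9.99%). By position, events 1 to 5 kb upstream had a median of 82 reads and events within 1 kb upstream 85.1 reads, both close to the far events, while events in the first 1 kb of a gene had 96 reads (92 to 103). The share under 50 reads was 7.60% (5.24 to 10.9%) at events 1 to 5 kb upstream and 5.59% (3.47 to 8.89%) within 1 kb upstream. It was 5.77% (3.33 to 9.81%) within 5 kb downstream and 5.73% (3.88 to 8.38%) deep inside genes. These intervals overlapped that of the far events, while that of the first 1 kb of genes, 1.81% (0.773 to 4.16%), did not.

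**Figure D3:**
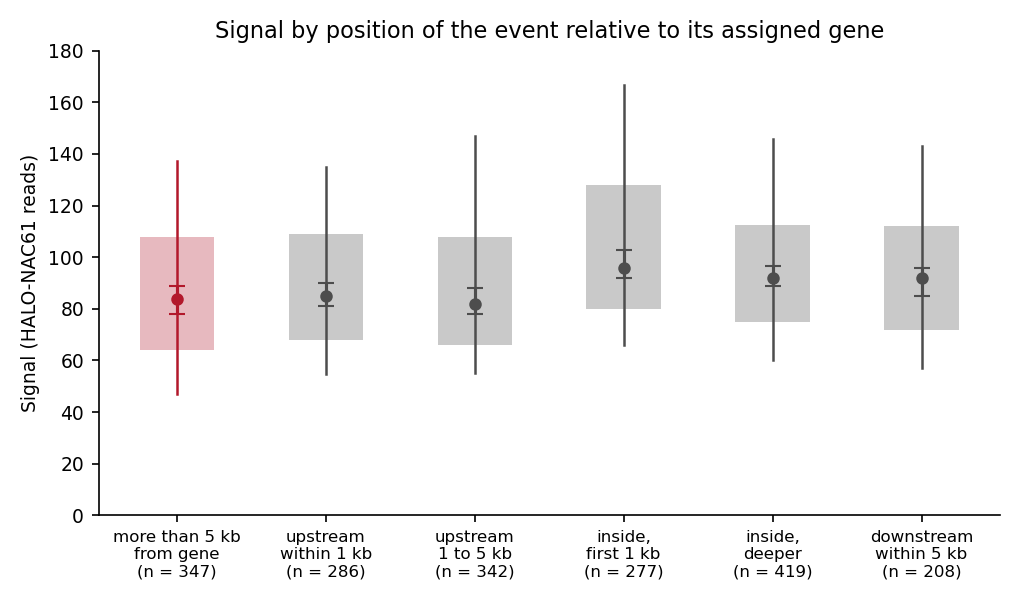
Signal (vertical axis, HALO-NAC61 reads) of the 347 far events (red) and 5 classes of other listed events (grey). Points are medians with 95% intervals, boxes run from the lower to the upper quartile and lines from the 10th to the 90th percentile. The far median of 83.8 reads lies beside those of the upstream classes, and the far box reaches lowest, to 63.9 reads.

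The q-values did not set the far events apart. A −log10 q of at least 3 was reached by 303 far events (87.3%), where the background over the whole list was 87.2%, and a value of at least 5 by 223 far events (64.3%, 59.1 to 69.1%), where it was 66.9%. Both shares were near the background. The median −log10 q was 7.11 (6.19 to 7.81) at far events, 7.15 (6.86 to 7.48) at other listed events and 7.15 over the whole list. Of the 856 events at the top of the whole list, the far events supplied 27 by signal (7.78% of the far events, 5.40 to 11.1%) and 36 by −log10 q (10.4%, 7.59 to 14.0%). Over all listed events the share was 10.3% by either measure, which both far intervals included. The other listed events had 10.9% by signal and 10.2% by −log10 q. Per read of signal, the median −log10 q was 0.0842 at far events and 0.0815 at other listed events, with intervals that overlap.

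The distance from the summit to the nearer end of the assigned gene had a median of 10.7 kb (9.60 to 11.7 kb), with quartiles of 6.96 and 18.3 kb. Of the far events, 163 lay between 5 and 10 kb away, 104 between 10 and 20 kb, 66 between 20 and 50 kb and 14 beyond 50 kb. Upstream of the gene lay 250 of them (72.0%, 67.1 to 76.5%) and downstream 97. Of the 1532 other listed events, 628 lay upstream, 208 downstream and the rest inside the gene. Upstream events thus outnumbered downstream ones in both classes. The study assigned each event to its closest gene, and for every far event this was the listed gene with the closest start. Such a rule gives a downstream event the length of the gene as an added distance. At 6 far events the body of another listed gene lay nearer than that of the assigned gene. The upstream events had a median distance of 9.96 kb and the downstream events 12.5 kb, and their median signals of 86 and 81 reads had overlapping intervals.

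**Figure D4:**
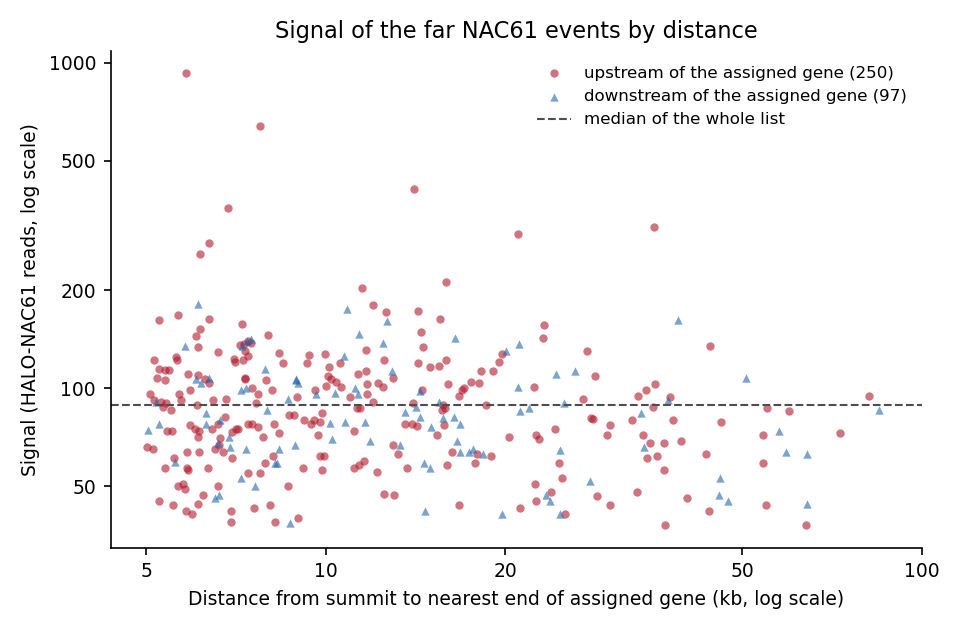
Signal of each far event (vertical axis, HALO-NAC61 reads, log scale) by distance from its summit to the nearer end of the assigned gene (horizontal axis, kb, log scale), for 250 events upstream (red circles) and 97 downstream (blue triangles). The dashed line is the median of the whole list, 89.25 reads. The 5 highest signals, 313 to 929.3 reads, all stand upstream, and the 14 events beyond 50 kb reach no higher than 108 reads.

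Signal did not change evenly with distance. The median was 83 reads (77.9 to 92) between 5 and 10 kb, 92.5 (84.6 to 101) between 10 and 20 kb and 72 (64.9 to 84) between 20 and 50 kb, and the 14 events beyond 50 kb had 72.4 (44.1 to 87). The median −log10 q followed the same order, with 7.21, 8.71, 5.43 and 6.37. The highest middle of the far events thus lay at 10 to 20 kb, where it was close to that of the whole list.

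The events on both sides of the limit of 5000 bp are given as a description of the rule. The nearest counted as far were those of the ABC transporter VvMDR15 (VIT_14s0066g02320; 5016 bp upstream, 66 reads), cyclin delta-2 (VIT_18s0001g07220; 5038 bp downstream, 74.3 reads), the CDPK-related kinase CRK1 (VIT_08s0040g01250; 5078 bp upstream, 95.9 reads), the gene ARF16, annotated as auxin response factor 2 (VIT_17s0000g00320; 5131 bp upstream, 65 reads), and the cellulose synthase CESA8 (VIT_10s0003g01560; 5153 bp upstream, 122 reads). The nearest not counted were a 1-phosphatidylinositol-3-phosphate 5-kinase (VIT_11s0016g00360; 4993 bp, 80 reads), BLADE-ON-PETIOLE2 (VIT_08s0007g05740; 4952 bp, 195 reads), an aluminum-activated malate transporter (VIT_08s0105g00250; 4946 bp, 100 reads), VvDREB32 (VIT_18s0001g05890; 4852 bp, 169 reads) and the kinase CIPK3 (VIT_06s0009g01840; 4821 bp, 120 reads). Of these 5 genes on the near side, the malate transporter also had far events. VvMDR15, cyclin delta-2 and CRK1 in turn had events of 80, 103.7 and 72.2 reads less than 5000 bp away, so the limit divides events of one gene.

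A few far events were among the strongest of the whole list. The highest signal, 929.3 reads with a −log10 q of 91.2, stood on sequence not placed on a chromosome, at chr00:15078652-15078852 (PN40024 12X.v2, as are all coordinates here), 5828 bp upstream of a gene annotated as cytochrome c oxidase subunit 2 (VIT_00s0438g00010), a core subunit of the last complex of the respiratory chain that most plants encode in the mitochondrial genome. It ranked 39 by signal in the whole list, and the same gene held an event of 1423.4 reads inside it. Without the 5 far events on unplaced sequence, the highest far signal was 640 reads and the median 83.4.

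The 640 reads were counted at chr2:16201003-16201203, 7768 bp upstream of a gene annotated as an anthraniloyal-CoA: methanol anthraniloyal transferase (VIT_02s0033g01020). Enzymes of this name make methyl anthranilate, the aroma compound of Concord grapes. With a −log10 q of 107 the event ranked 19 in the whole list and was the most significant of the far events, yet no k-mer was recorded at it and the next event lay 45.4 kb away. That neighbour was a far event too, of 104 reads and a −log10 q of 18.0 with the word tagcgtgt, 6181 bp downstream of the next gene of the same annotation (VIT_02s0033g01030). Of the same gene group, VIT_02s0033g01070 had far events of 101 and 87 reads at 21.0 and 21.9 kb downstream, and VIT_02s0033g01060 one of 82 reads at 14.4 kb downstream. The first of these 5 events stood apart from the others by its signal.

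The third and the fourth highest far signals belonged to a TF gene and to a channel gene. The BELL-type homeodomain protein BLH1 (VIT_08s0105g00230), which in Arabidopsis acts in cell identity in the embryo sac, had an event of 411 reads and a −log10 q of 90 at chr8:7240482-7240682, 14047 bp upstream, with the word ggTTGCGTGt. The cyclic nucleotide-gated ion channel 16 (VIT_17s0000g08050), a member of a family of cation channels, had 358 reads and a −log10 q of 41.1 at 6850 bp upstream and no k-mer. The Cd2+-exporting ATPase HMA2 (VIT_11s0103g00370), a pump that in Arabidopsis moves zinc and cadmium out of cells, had 298 reads and a −log10 q of 44.4 at chr11:16358967-16359167, 20999 bp upstream, with the word TGACGTGtt. All 3 events ranked within the highest 82 of the whole list by signal and within the highest 123 by −log10 q.

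One strong signal was not matched by its q-value. The event 35479 bp upstream of an AarF domain-containing kinase (VIT_12s0057g01150), at chr12:9466451-9466651, had 313 reads but a −log10 q of only 2.35, so it ranked 79 of 8558 by signal and 8124 by q-value. It was the only one of the 24 far events with at least 150 reads whose −log10 q was under 5, as was 1 of 153 among the other listed events and 2 of 783 in the whole list. The reads of the control at this event were not analysed here. The word recorded there was aTGGCGTG.

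The remaining events among the 10 highest signals were upstream as well. A calmodulin-binding transcription activator annotated as CAMTA6 (VIT_05s0077g01240), of a family of TFs that respond to calcium, had 280 reads at 6356 bp, and a C-myc binding protein gene (VIT_19s0014g05400) had 259 reads at 6156 bp. An ATPase-like gene (VIT_17s0000g08750) had 212 reads at 15.9 kb with the word ggTTGCGTG, and the aspartic protease VvAP31 (VIT_12s0028g00610) 204 reads at 11.5 kb. Their −log10 q lay between 19.0 and 25.3.

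By q-value, 5 further genes joined the 10 highest far events. Cullin-1 (VIT_04s0043g00650), the scaffold of SCF ubiquitin ligases, had a −log10 q of 32.6 at an event of 162 reads 39.0 kb downstream. The ABC transporter VvMDR9 (VIT_09s0002g00750) had a value of 30.3 at 7315 bp upstream, and delta 1-pyrroline-5-carboxylate synthetase (VIT_15s0024g00720), the first enzyme of proline synthesis from glutamate, 30.2 at 11988 bp upstream. The TF gene bHLH064 (VIT_14s0128g00110) reached 28.2 at 8336 bp upstream with the word gtTTGCGTGt, and a callose synthase subunit (VIT_17s0000g10010), of the enzyme that makes the cell wall glucan callose, 27.7 at 23.1 kb upstream. Their signals of 128.4 to 180.6 reads were well below those of the strongest far events. All distances run to the ends of gene models, and some models were short. That of Cullin-1 ran only from 14611026 to 14611383 on chromosome 4. Whether a model covers the whole gene was not tested.

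The 5 farthest events were assigned to 3 genes. The gene of ADP-ribosylation factor A1B (VIT_01s0127g00920), a small GTPase of vesicle transport, had 3 of them, of 86, 62.9 and 44.1 reads at 84.7, 64.3 and 64.1 kb downstream. Those of 62.9 and 44.1 reads lay 186 bp apart with overlapping intervals, so they may share reads and are not separate measurements. BRXL1 (VIT_02s0033g00590), related to BREVIS RADIX of Arabidopsis root growth, had an event of 95 reads 81.5 kb upstream with no other event within 164.8 kb, and the cytochrome P450 CYP72A59 (VIT_19s0135g00120) one of 73 reads 72.9 kb upstream with the word TGGCGTGt. All of these except the event of BRXL1 were below the median signal of the whole list.

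Of the 287 genes with a far event, 172 had no other listed event and 115 (40.1%, 34.6 to 45.8%) had at least 2 listed events, against 210 of the 1190 other listed genes (17.6%, 15.6 to 19.9%). A gene with more events has more chances to hold a far one, so part of this difference follows from how the genes were grouped. Of the 287 genes, 238 had 1 far event, 40 had 2, 7 had 3 and 2 had 4, and for 207 genes every event was far. A nearer event was present as well at 80 genes (27.9%, 23.0 to 33.3%), and within 1 kb upstream at 9 of them. The genes with a far event had a median length of 3476 bp (2950 to 4142) and the 1270 genes with other listed events 3880.5 bp (3595 to 4156). The 80 genes with both a far and a nearer event count in both of these groups.

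Of the genes with 4 far events, ADP-ribosylation factor A1B had them spread over 70.5 kb downstream, with 88 reads at the nearest (14.2 kb, word tTTGCGTGt) and a pair of events 186 bp apart at 64 kb whose words, gaTTGCGTG and cTTGCGTG, both held the motif. Cullin-1 had events of 162, 64.9 and 113 reads downstream and of 78 reads upstream, over 47.5 kb. Neither gene had a nearer event. The intervals of the pair 186 bp apart overlap, so its events may share reads.

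Genes with 3 far events came from several functions. For 3-hydroxy-3-methylglutaryl-coenzyme A reductase 3 (VIT_03s0038g04100), of the enzyme that feeds the mevalonate route to isoprenoids, events of 116, 96 and 75 reads lay within 3001 bp of each other at 7.12 to 10.1 kb upstream, and an event of 76 reads 15 bp behind the gene. The gene ARF9 (VIT_10s0003g04100), annotated as auxin response factor 3, had 100, 104 and 80 reads at 7.53, 18.1 and 32.6 kb upstream, with the word tagcgtgt at the nearest and aTTGCGTG at the next. The aluminum-activated malate transporter 1 (VIT_08s0105g00250), of a family of anion channels, had 113 and 87 reads upstream and 98 reads downstream, besides the event of 100 reads just within the limit. An AT-hook DNA-binding protein (VIT_02s0012g00880) had 122.1 and 66.9 reads 420 bp apart upstream and 142 reads downstream, and a calcineurin-like phosphoesterase (VIT_07s0141g00990) 161, 81 and 78 reads. The 3 events of a class Ia aminoacyl-tRNA synthetase (VIT_15s0024g00600), of 80, 68 and 103 reads, lay within 2.61 kb of each other and 35.7 to 38.3 kb upstream, and those of an ARF-GAP domain gene (VIT_00s0250g00050, placed on chromosome 13 in this assembly), of 106, 106.7 and 59.3 reads, 5.59 to 8.90 kb downstream. In these 7 genes the far signals lay between 59.3 and 161 reads.

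The far events as a whole had more distant neighbours than the other listed events, but not those nearest to a gene. The nearest other event of the whole list was at a median of 14.9 kb (13.5 to 19.96 kb) from a far event, against 11.7 kb (10.5 to 12.9 kb) from another listed event. No event lay within 50 kb of 65 far events (18.7%, 15.0 to 23.2%) and of 176 other listed events (11.5%, 9.99 to 13.2%), and within 5 kb there was one for 84 far events (24.2%) and 476 of the others (31.1%). At close range the classes were alike, since 20 far events (5.76%, 3.76 to 8.73%) and 106 other listed events (6.92%) had a neighbour within 500 bp. The 163 far events at 5 to 10 kb did not share this spacing, with a median of 12.1 kb (9.17 to 14.3 kb) to the nearest event and 15 (9.20%, 5.66 to 14.6%) without an event within 50 kb. The median was 21.0 kb (13.3 to 27.8 kb) at 10 to 20 kb, 28.2 kb (14.9 to 36.9 kb) at 20 to 50 kb and 26.7 kb (0.186 to 164.8 kb) for the 14 events beyond 50 kb, of which 4 had a neighbour within 500 bp, so the intervals of these 3 classes overlapped. Over all far events and over all other listed events, the median number of other events within 50 kb was 2. Among the other classes, events in the first 1 kb of a gene had a median of 13.3 kb (10.4 to 16.1 kb) and events within 5 kb downstream 12.5 kb (9.51 to 15.0 kb). Events deeper inside genes had 11.9 kb (9.81 to 13.7 kb) and events within 1 kb upstream 10.4 kb (8.61 to 14.9 kb). All of these intervals overlapped that of the far events. Only the interval of events 1 to 5 kb upstream, with a median of 11.6 kb (8.755 to 13.0 kb), lay below it. The event of the cytochrome P450 CYP72A1 (VIT_19s0015g02910), of 157 reads 23.2 kb upstream, had its nearest neighbour at 595 kb.

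The close neighbours were mostly pairs of far events of 1 gene, named here for their spacing after their values were seen. Upstream of delta 1-pyrroline-5-carboxylate synthetase, events of 180.6 and 96.4 reads were 281 bp apart, and upstream of the chaperone calnexin 1 (VIT_01s0150g00400), which helps to fold proteins in the endoplasmic reticulum, events of 162.6 and 122.4 reads were 366 bp apart. At Cullin-4 (VIT_10s0003g03710), 135 reads with the word atagcgtg stood 306 bp from 42 reads with the word aTTGCTTGt, 43.9 kb upstream of the gene. The closest pair, 98 bp apart and 54.1 kb upstream of a C2-HC type zinc finger gene (VIT_09s0096g00720), had 71.8 and 59.2 reads and the word aTTGCTTGt at both events. Intervals of 201 bp overlap at that spacing, so both events may share reads and are not separate measurements.

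By chromosome, the share of listed events that were far was highest on chromosome 3, with 28 of 85 (32.9%, 23.9 to 43.5%), chromosome 9, with 20 of 61 (32.8%, 22.3 to 45.3%), and chromosome 10, with 21 of 74 (28.4%, 19.4 to 39.5%). Chromosome 18, which held the most events, had the lowest share, 16 of 157 (10.2%, 6.37 to 15.9%). These 4 chromosomes had intervals that did not include the share over all listed events, 18.5%. They are the extremes of all chromosomes, and among so many intervals some may miss that share by counting error alone. The far events of chromosome 3 were weak, with a median of 65 reads, and those of chromosome 18 had a median of 96.5 reads. The gene density of the chromosomes was not analysed here.

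**Figure D5:**
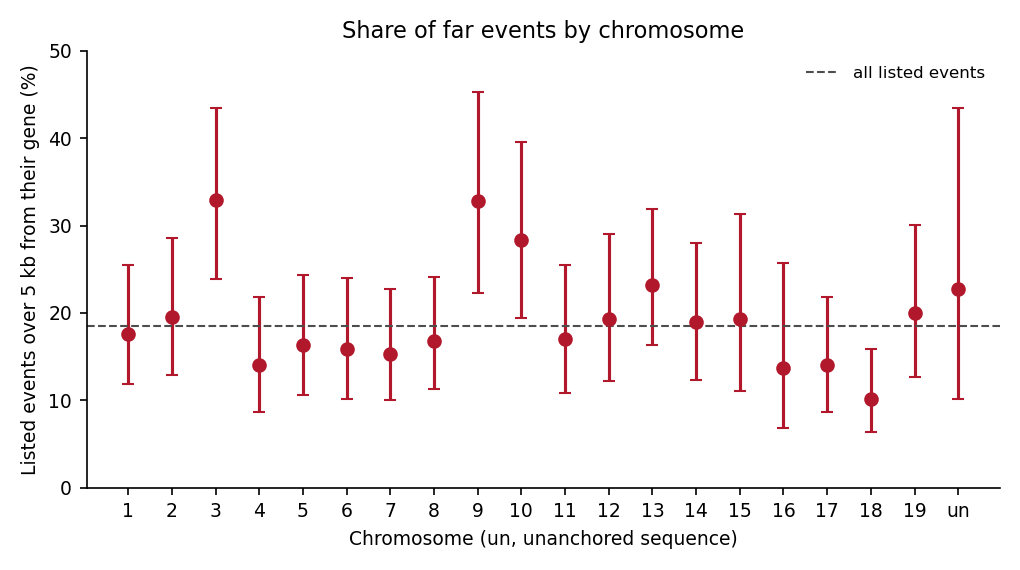
Share of listed events that lie more than 5 kb from their assigned gene (vertical axis, %) on each chromosome (horizontal axis), with 95% Wilson intervals. The dashed line is the share over all listed events, 18.5%. Chromosomes 3, 9 and 10 lie above it and chromosome 18 below it, with intervals that do not reach the line.

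The functions of the assigned genes are described by the categories and the annotation words of the event sheet. Because the sheet is cut off along the alphabet of annotations, the lists are partial, and the share of far events in each is to be read beside the 18.5% over all listed events. In the category of amino acid metabolism 34 of 108 listed events were far (31.5%, 23.5 to 40.7%), and this category holds the anthraniloyal transferases. For Transport the count was 56 of 263 (21.3%), for hormone response 32 of 153 (20.9%), for secondary metabolism 21 of 103 (20.4%), for TF activity 26 of 145 (17.9%) and for stress response 5 of 42 (11.9%), each with an interval that included 18.5%. By annotation word, anthocyanin or anthraniloyal genes had 9 far of 18 events (29.0 to 71.0%), and amino acid permeases 6 of 14 (42.9%, 21.4 to 67.4%).

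Among transport genes, after the channel and HMA2 described above, a cation-transporting ATPase (VIT_07s0130g00070) had 164 reads at 15.6 kb upstream with the word gTTGCGTGt, and DICER-like 4 (VIT_11s0149g00120), which makes small interfering RNAs and is filed under Transport in the sheet, 149 reads at 14.4 kb. The far events of amino acid permeases had 63 to 99 reads and none had a k-mer. The highest of them belonged to VIT_09s0002g08410, with 99 reads at 7196 bp downstream, followed by VIT_02s0033g01320 and VIT_19s0027g01890 with 78 reads each and VIT_13s0019g04660 with 73.6 reads. Of 13 listed events of aquaporins, channels for water and small solutes, 1 was far, at NIP6;1 (VIT_09s0070g00080; 111 reads and a −log10 q of 19.7 at 11.3 kb upstream).

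Among TF genes, those after BLH1 and CAMTA6 were a cycling DOF factor 2 (VIT_08s0056g01230), of a family that in Arabidopsis represses flowering by day length, with 138 reads at 12.5 kb downstream, and a SNF2 helicase gene (VIT_10s0116g01490) with 134 reads at 14.6 kb upstream. Of 43 listed events of bHLH genes, 7 were far (16.3%). The 4 strongest stood upstream of bHLH064 (128.4 reads), bHLH023 (VIT_05s0029g00390; 104 reads), bHLH084 (VIT_18s0001g09210; 99 reads) and VIT_08s0058g00960 (92 reads), and the last of these also had an event of 225 reads at 2003 bp upstream. Its far event was thus the weaker of both.

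Among hormone genes, the events spread over several pathways. The auxin efflux carrier annotated as PIN3 (VIT_01s0011g04860) had far events on both sides, of 164 reads at 6380 bp upstream with the word ggTTGCGTG and of 135 reads at 7232 bp downstream. The response regulator annotated as ARR24 (VIT_07s0005g05040), of the cytokinin pathway, had 173 reads at 14.3 kb upstream. The jasmonate receptor annotated as Coronatine-insensitive protein 1 (VIT_13s0019g03380) had 137 reads at 7289 bp upstream, besides 61.6 reads at 461 bp upstream and 87 reads inside the gene. Auxin genes had 17 far of 75 events (22.7%), among them the 120 reads at 8479 bp upstream of ARF16, annotated as auxin response factor 2.

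The word abscisic picked out 5 far of 12 listed events (41.7%, 19.3 to 68.0%), all from different genes and all with a low −log10 q. The abscisic acid receptors PYL8 (VIT_16s0050g02620), PYL4 (VIT_08s0058g00470) and PYL9 (VIT_15s0046g01050) had 114, 90 and 64 reads at 5375, 5387 and 6729 bp upstream, with −log10 q values of 3.18, 2.34 and 4.88. The TF gene ABI3 (VIT_07s0005g05400), known from seed maturation in Arabidopsis, had 59 reads at 8229 bp downstream, and the gene of the abscisic acid 8'-hydroxylase CYP707A4 (VIT_03s0063g00380), which degrades the hormone, 50 reads at 5642 bp upstream. The −log10 q of the last, 5.01, was the highest of the 5, so all lay below the far median of 7.11.

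In secondary metabolism, after CYP72A1, an anthocyanin 3-O-galactosyltransferase (VIT_06s0009g02010) had 143 reads at 16.5 kb downstream, a cis-zeatin O-beta-D-glucosyltransferase (VIT_03s0017g01040) 111 reads at 24.4 kb downstream and a desulfoglucosinolate sulfotransferase (VIT_18s0072g01250) 105 reads at 17.5 kb upstream. Disease resistance genes, most of them immune receptors of the NBS-LRR type, had 10 far of 31 events (32.3%, 18.6 to 49.9%). The strongest of these, of 113 reads and a −log10 q of 20.2, lay 26.2 kb downstream of VIT_17s0053g00520, and those of VIT_18s0041g02380, VIT_00s0275g00060 and VIT_03s0017g00610 had 107, 89 and 70 reads. VIT_13s0064g00070 had 64 reads at 16.3 kb upstream. Calcium and calmodulin genes had 11 far of 65 events (16.9%), led after CAMTA6 by the calcium pump ACA9 (VIT_09s0018g02130; 127.6 reads), a calmodulin-binding protein (VIT_02s0025g04120; 108 reads) and the kinase CPK13 (VIT_11s0037g01430; 103 reads, with a −log10 q of only 2.18).

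A far event need not be far from every gene. Of the 347, 5 (1.44%, 0.617 to 3.33%) lay within 5000 bp of another listed gene, and 2 of these lay inside it. The event 14.4 kb downstream of the malate transporter 1 (98 reads) fell inside VIT_08s0105g00260, and the event 8918 bp downstream of VIT_18s0041g02380 (107 reads) inside VIT_18s0041g02390. The other 3 were assigned to the auxin response factor VIT_17s0000g00320 (120 reads, 3470 bp from VIT_17s0000g00310), to bHLH084 (99 reads, 1910 bp from VIT_18s0001g09220) and to an ABC transporter (VIT_06s0061g00250; 62 reads, 1472 bp from VIT_06s0061g00240). Genes that were not among the 1477 listed were not used, so the count of 5 is a lower bound.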

How the data were processed

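The authors trimmed reads with fastp 0.21.0 and aligned them with Bowtie2 2.0 (per the submitters' processing notes) to PN40024 12X.v2, removed reads with a mapping quality under 30, and called events with GEM 3.4 on the HALO-NAC61 replicates against the GST-HALO control. The deposited signal is a count of HALO-NAC61 reads per event, the deposited −log10 q-value is that of GEM against the control, and the deposited score and p-value were not used. Of the signals of far events, 86.7% were whole numbers. Library depths and control reads per event were not analysed here, so precision is known only from the reads per event.

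Each event is an interval of 201 bp, and its summit was joined by event name to the study's event sheet, from which gene IDs, gene coordinates (v1 models placed on the assembly, closest gene by ChIPpeakAnno), annotations, categories and k-mers were taken, but no fold or expression value. No column belonged to other samples. Shares have 95% Wilson intervals and medians binomial order-statistic intervals. The intervals of medians, the distance classes and the motif search were tested on simulated data. No test was run over events. Members and lists were chosen with earlier results of these data known. Genes named are those of the 10 far events with the highest signal and the 10 with the highest −log10 q, the 5 farthest, the 5 on each side of the limit, genes with 3 or more far events, and the 4 strongest far events of each gene list. Far events near another listed gene, the examples of the 2 most frequent k-mers, CYP707A4 and the last anthraniloyal transferase events were added after their values were seen. Alternatives changed the distance limit, the minimum q-value or signal, the point of measurement, the neighbour distance, the motif spellings and the events per gene. Scripts ran in Python 3.11.15 (numpy 2.4.6; scipy 1.17.1; pandas 2.3.3), and figures were drawn with matplotlib 3.10.9.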

Additional observations from a re-analysis of the deposited data

How the results depend on the processing

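Of 59 comparisons of a value of the far events with an alternative setting, 47 stayed within the interval or within 1.5 times the count and 12 moved. Such values have no direction that could reverse, and differences from the other listed events were not among the 59. With a limit of 10 kb the number of far events was 184, and with a −log10 q of at least 5 it was 223. At that q-value the median signal was 99 reads, the median −log10 q 10.05 and the k-mer share 25.1% of far events against 39.3% of other listed events, and with a −log10 q of at least 3 the median −log10 q was 7.97. These filters remove the weakest events by construction, as does a minimum of 60 reads, added after seeing the data, with which the median signal was 94 reads against 95 for the other listed events. The motif share was 62.1% with the CACG spellings alone and 11.7% with the CAAG spellings alone. The share with a neighbour was 9.22% within 1000 bp, 24.2% within 5000 bp and 3.14% with 1 event per gene.

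No paired analysis was possible because the list analysed here, called on both replicates together, has no value per replicate, and no replicate could be left out of it. The reads of each replicate were not used here. A motif search around the summits was not run, since no genome of 12X.v2 was used here. Only 22.0% of all events had gene coordinates, in alphabetical order of annotation, so shares may differ in the remainder. Events under 50 reads rest on few reads.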
